A study of Mus musculus with 12 samples.

Results

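The let-7 and miR-98 family was followed in pancreatic islets, the clusters of hormone-secreting cells that hold the insulin-producing beta cells. Islets came from male C57BL/6 offspring, 2 to 3 months old, born to mothers kept through gestation on low-protein food (LP0.5) or on control food, with 6 LP0.5 and 6 Control samples in the labels. All islets were hand-picked and kept overnight in culture medium before RNA was taken, in both groups alike. The labels do not say whether a sample came from 1 mouse or from several, and what the offspring themselves ate was not analysed here. MicroRNAs (miRNAs) were assayed by TaqMan real-time PCR at 846 spots of a panel. Each spot has at most 1 linear ratio in the authors' deposited table, whose heading sets L.05 (the low-protein samples) against Control. Members were the spots whose small RNA name, without species prefix and arm, was let-7a, let-7b, let-7c, let-7d, let-7e, let-7f, let-7g, let-7i or miR-98, and names ending in # were left out. That gave 9 spots of 846, 1 for each name, and all 9 had a ratio, as did 566 of the 750 miRNA spots.

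MiRNAs are short RNAs that pair with messenger RNAs through the seed, bases 2 to 8 of the miRNA, and lower the output of those messengers. The let-7 family was found in the worm Caenorhabditis elegans as a timer of development. In mammals it accumulates as cells mature, while the RNA-binding protein Lin28 blocks its processing in embryonic cells. Known mammalian targets include the growth regulator Hmga2 and the insulin pathway genes Insr, Igf1r and Irs2, and in mice excess let-7 impairs glucose tolerance.

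The mature sequences show why the 9 names form 1 family and how little separates their assays. Sequences are RefSeq's for mouse, assembly GRCm38.p6, matched by name for 9 of 9 members as the 5p strand, with the seed in capitals.
let-7a: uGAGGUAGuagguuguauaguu
let-7b: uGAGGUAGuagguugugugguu
let-7c: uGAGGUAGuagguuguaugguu
let-7d: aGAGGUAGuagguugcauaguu
let-7e: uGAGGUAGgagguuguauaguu
let-7f: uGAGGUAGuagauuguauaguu
let-7g: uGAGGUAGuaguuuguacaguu
let-7i: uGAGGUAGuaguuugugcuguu
miR-98: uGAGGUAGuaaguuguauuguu
All 9 are 22 bases long and share 1 seed, and 14 of the 22 positions are identical in every member. Counted from 1 at the 5′ end and with let-7a as the base for comparison, let-7c differed only by A19G, let-7e only by U9G and let-7f only by G12A. Others were 2 bases away from let-7a, namely let-7b (A17G, A19G), let-7d (U1A, U16C), let-7g (G12U, U18C) and miR-98 (G11A, A19U). The most distant was let-7i with 4 differences (G12U, A17G, U18C, A19U). An assay may detect a close relative besides its own target, so the 9 ratios may not be separate measurements, and how far the assays tell members apart was not tested. All 9 assays carry a human prefix in the authors' deposited table, and the mouse sequence was taken by name.

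The family comes from 12 genes in 8 places of the mouse genome. Mature let-7a lies at chr13:48538239-48538260 (minus strand), next to let-7f at chr13:48537889-48537910 and let-7d at chr13:48536078-48536099, both on the minus strand as well. Mature let-7c at chr15:85706616-85706637 and let-7b at chr15:85707325-85707346, both on the plus strand, lie within the long noncoding gene Lncppara. A further copy of let-7c is at chr16:77599672-77599693 (plus strand), between the hairpin genes of miR-99a and miR-125b. The let-7e sequence at chr17:17830366-17830387 (plus strand) lies within the span of Spaca6, between miR-99b and miR-125a. On chromosome X, let-7f at chrX:151912353-151912374 and miR-98 at chrX:151913229-151913250 (both on the plus strand) lie within the span of Huwe1, a ubiquitin ligase gene. The remaining members stand alone, let-7g at chr9:106178846-106178867 (plus strand) within the span of Wdr82 and let-7i at chr10:122985698-122985719 (minus strand). These are positions in GRCm38.p6, and whether a hairpin falls in an exon or an intron of its host was not analysed here. Since let-7c and let-7f are each made from a pair of genes listed here, and let-7a from a further gene beside miR-100, a mature ratio cannot be assigned to 1 gene.

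No member was listed as much as 1.5-fold away from 1, and most were listed a little above it. By the column heading, values above 1 stand for more of the miRNA in LP0.5 islets. That heading is the only basis for the direction. The study is known for naming miR-199a-3p among the miRNAs raised by the low-protein diet. Its ratio in the authors' deposited table was 0.422, which by the heading stands for less of it in LP0.5 islets. If the heading were reversed, each ratio below would have to be turned round, so values are given only as above or below 1. In bulk islet RNA, fewer cells of a type and less RNA per cell cannot be told apart.

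The upper part of the family was formed by 4 members at least 1.2-fold above 1. The authors' deposited table listed miR-98, the X-linked member that does not carry the let-7 name, at 1.35 and let-7c, made from chromosomes 15 and 16, at 1.32. It listed let-7e, a regulator of Toll-like receptor signalling in mouse macrophages, at 1.30, and let-7b, which lowers Hmga2 in ageing mouse neural stem cells, at 1.26, again from the authors' deposited table. These 4 values lie within a narrow band. For comparison, 24.3% of the 304 miRNA spots with a ratio in the same assay set (A, explained below) were listed at least 1.2-fold above 1. Were the heading reversed, the share to compare would be the 30.3% listed as far below. Counted in either direction, 4 of 9 members and 54.6% of these spots were at least 1.2-fold from 1.

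Below them came let-7a, with a ratio of 1.17 in the authors' deposited table. For let-7d and let-7i the authors' deposited table gave 1.13 and 1.06 (let-7d is reduced in human fibrotic lung, and let-7i regulates Toll-like receptor signalling in human bile duct cells). The value for let-7g was 1.02 in the authors' deposited table. The last was let-7f, linked to vessel growth in human endothelial cells, at 0.840 in the authors' deposited table, the only member below 1. Thus 8 members were above 1 and 1 was below.

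The panel around them was centred close to 1. Over the 9 members the median ratio was 1.17 (0.23 on the log2 scale), against 0.976 over the 304 A set miRNA spots and 1.01 over all 566. Above 1 were 8 of 9 members, against 47.7% of the A set spots and 50.9% of all spots. At least 1.5-fold from 1 were 0 of 9 members, against 28.9% of A set spots and 35.3% of all spots. The A set ratios ran from 0.0209 to 3.63e+07, with the 25th and 75th percentiles at 0.796 and 1.19. The shares therefore include extreme ratios and do not count miRNAs known to differ. The position of a member in the A set went from 84.2% of spots listed lower for miR-98, through 73.0% for let-7a, to 54.6% for let-7g and 30.9% for let-7f. Listed higher were 15.5% of spots for miR-98, 26.6% for let-7a, 45.1% for let-7g and 68.8% for let-7f, which with the ratios turned round would be the spots listed lower.

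The 12 per-sample columns deposited beside the ratios could not be matched to samples and were not used, so the error of a ratio is not known here and no p-value is given. Within the ratio table the repeats that bear on spread are control spots. The panel carries 5 small RNA controls (U6, snoRNA135, snoRNA202, U87 and Y1), each at 8 spots in the A set, and they show how far 1 assay ranges from spot to spot, not how far islet samples differ. Across those 8 spots the highest ratio over the lowest was 1.15-fold for snoRNA202, 1.32-fold for U87, 1.48-fold for Y1 and 1.84-fold for snoRNA135. Across the 9 family members it was 1.60-fold, between the range of Y1 and that of snoRNA135. On the log2 scale the SD of the members was 0.22, against 0.25 for the 8 snoRNA135 spots, 0.18 for Y1, 0.12 for U87 and 0.060 for snoRNA202. For the 8 U6 spots the range was 1.066-fold and the SD 0.032. Different family members were thus spread about as widely as repeated spots of Y1 and snoRNA135, the more variable control assays. They were spread more widely than those of U6, snoRNA202 and U87.

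**Figure D1:**
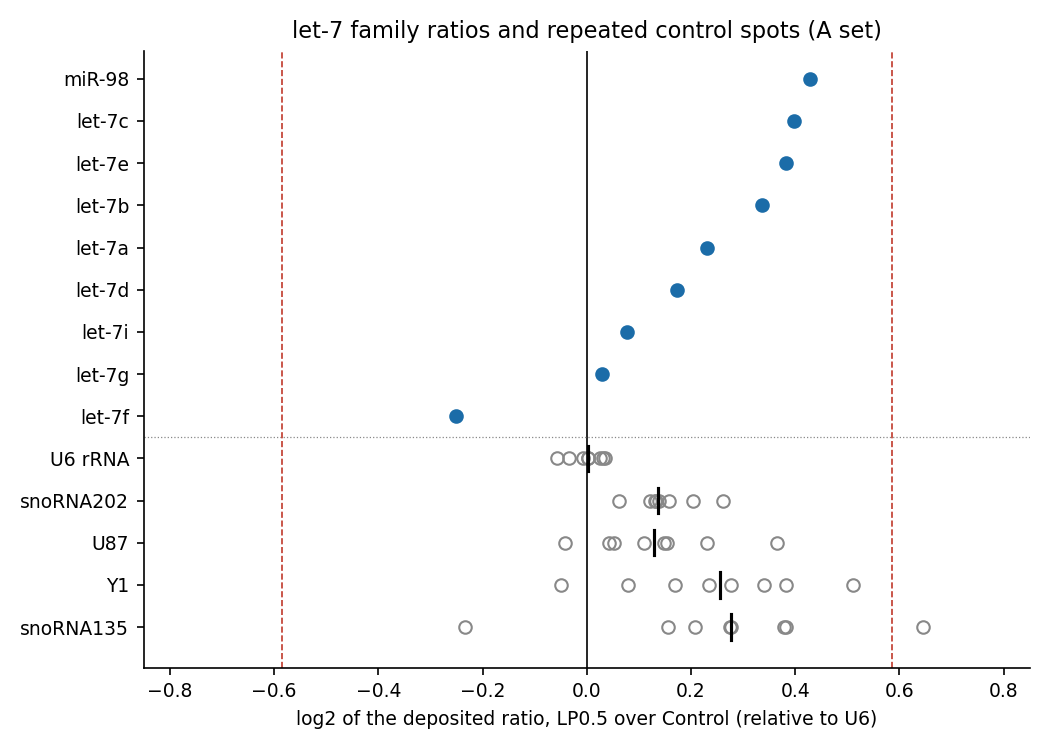
Log2 of the deposited ratio, LP0.5 over Control, for each family member (filled points, 1 spot each) and for the 8 A set spots of each small RNA control (open points, black bar at the median). Dashed lines mark 1.5-fold. The members run from 0.43 for miR-98 to -0.25 for let-7f, none reaches a dashed line, and snoRNA135 spots cover a wider range than the family.

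Most neighbours in this order cannot be ranked. Going down from miR-98 to let-7g, each step to the next member was between 1.01-fold and 1.08-fold, less than the 1.15-fold range of snoRNA202. The steps from let-7b to let-7a (1.076-fold) and from let-7d to let-7i (1.068-fold) were just above the 1.066-fold range of the 8 U6 spots, to which all ratios are set. The single larger step, 1.21-fold from let-7g to let-7f, exceeded the snoRNA202 range but not the 1.32-fold range of U87. The position of let-7f at the bottom is the clearest part of the order, but 1 spot carries it.

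The ratios are relative to U6, a spliceosomal RNA, since the 8 U6 spots of the A set averaged 0 on the log2 scale, and so did those of the B set. These are the assay sets formed by the spot codes, and all 9 members lie in A. The other controls were listed somewhat above 1 in the A set, with median ratios of 1.09 for U87, 1.10 for snoRNA202, 1.19 for Y1 and 1.21 for snoRNA135. The family's median ratio of 1.17 lies among them. With each control in turn as the reference, the family's median ratio was 1.07 against U87 (6 of 9 members above 1), 1.06 against snoRNA202 (6 of 9), 0.991 against Y1 (4 of 9) and 0.979 against snoRNA135 (4 of 9). Above 1 under the same references were 35.5%, 32.9%, 25.7% and 24.7% of the A set spots, in that order. With the mean of these 4 controls as the reference, 5 of 9 members and 29.6% of the A set spots were above 1. On that scale let-7f was at 0.733, let-7g at 0.890, let-7i at 0.921 and let-7d at 0.983, while miR-98 was at 1.17. Because all members share 1 set, a change of reference for the set moves them together and leaves their order as it is.

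Under U6, each of these 4 controls and their mean, miR-98, let-7c, let-7e and let-7b were above 1, and let-7f, let-7g and let-7i were below 1 under all of these except U6, where only let-7f was. No member reached 1.5-fold from 1 under any reference run. Under U6, 28.9% of the A set spots did, and that share was not computed under the other references. The middle members, let-7a and let-7d, were above or below 1 depending on the reference, with let-7a between 0.979 and 1.17 and let-7d between 0.941 and 1.13 across U6 and the 4 single controls.

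**Figure D2:**
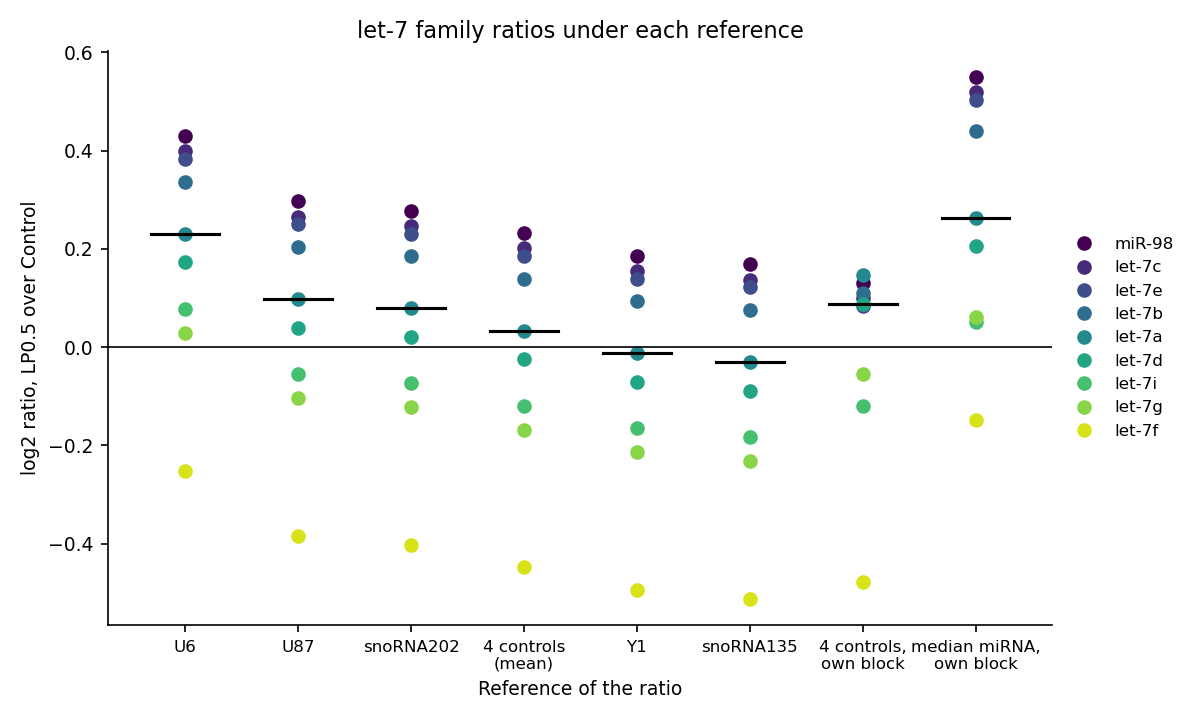
Log2 ratio of each member, LP0.5 over Control, when the ratio is taken relative to U6, to 1 other control, to the mean of the 4 other controls in the set or in the member's own block, or to the median miRNA spot of that block; black bars are family medians. The median is 0.23 with U6, -0.030 with snoRNA135 (the lowest) and 0.26 with the median miRNA spot of the block (the highest), and let-7f is lowest in every column.

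The highest members shared 1 part of the panel. The spot codes divide the panel into 16 blocks, and the 9 members lie in 4 of them. Block A1 held miR-98, let-7c and let-7e, the 3 highest members, at 1.30 to 1.35 in the authors' deposited table. Block B2 held let-7a, let-7d and let-7g, at 1.02 to 1.17, and block C1 held let-7i alone. In block D2 lay both let-7b and let-7f, at 1.26 and 0.840 in the authors' deposited table, so that the members of this 1 block lay 1.503-fold apart.

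Controls differed between these blocks, and not always in the order of the members. In A1 the authors' deposited table listed Y1 at 1.43, snoRNA135 at 1.30, snoRNA202 at 1.12 and U87 at 1.11, with U6 at 0.977. In B2 these 4 controls were each lower than in A1, with Y1 at 0.966, snoRNA135 at 1.11, snoRNA202 at 1.09 and U87 at 1.08, beside U6 at 1.02 in the authors' deposited table. The mean ratio of the 4 controls was 1.23 in A1, 1.06 in B2 and 1.15 in C1, and it was 1.17 in D2, the block of the lowest member, let-7f. In single controls A1 was not always highest, since U87 was at 1.17 in D2 and snoRNA135 at 1.30 in both C1 and A1 in the authors' deposited table. Relative to the 4 other controls of its own block, let-7a was at 1.11, miR-98 at 1.09, let-7b at 1.08, let-7c at 1.07, and let-7d and let-7e each at 1.06. On that scale let-7g was at 0.963, let-7i at 0.920 and let-7f at 0.718. Among the upper 6 members the order by block controls thus differed from the order by U6, and their whole range shrank to between 1.06 and 1.11.

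Against the other miRNAs of block A1 the picture was the opposite. The median ratio of the 42 miRNA spots with a ratio in A1 was 0.919, and of the 39 that are not family members 9 were above 1. Each of the 3 family members in A1 was listed higher than 36 of those 39 spots. In D2, let-7b was listed higher than 31 of 40 other miRNA spots and let-7f higher than 15 of 40. In B2, let-7a was listed higher than 28 of 35 and let-7g higher than 22 of 35. Whether block differences have a part in the members' order was not tested.

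**Figure D3:**
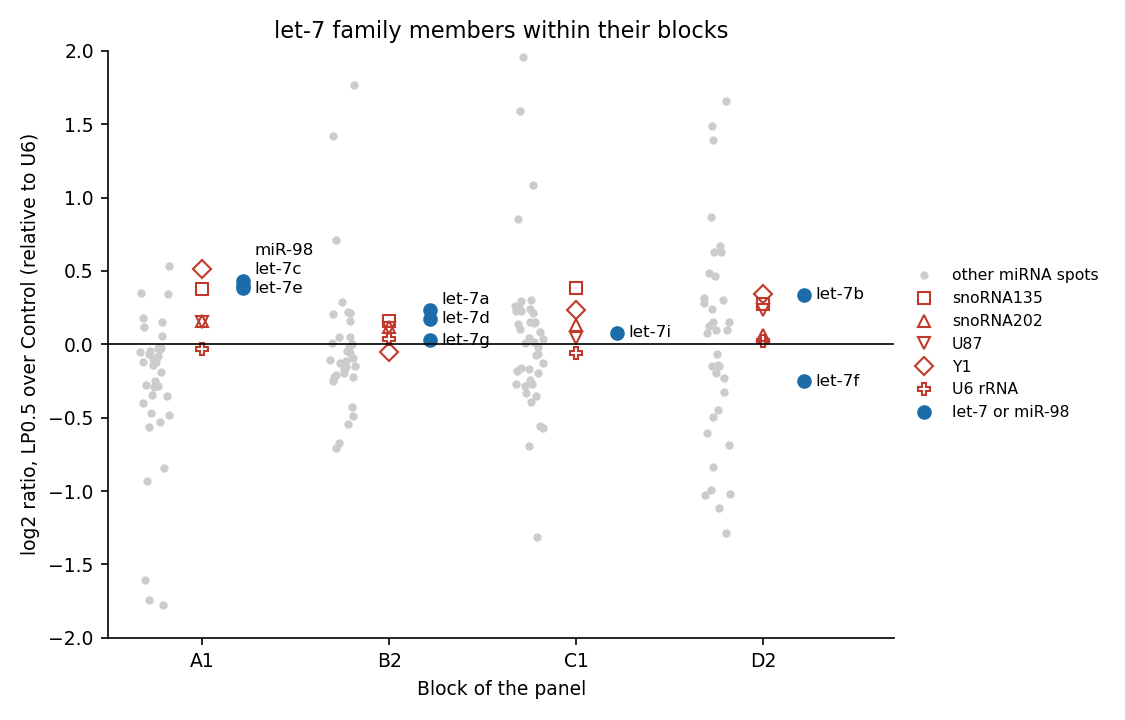
Log2 ratio, LP0.5 over Control, in the 4 blocks that hold family members: other miRNA spots (grey, spread sideways at random), the 5 control spots of the block (open red symbols) and the family members (blue). Of 155 other miRNA spots, 11 lie beyond 2 on the log2 scale and are not drawn. In block A1 the 3 members lie near the Y1 and snoRNA135 spots and above 36 of 39 other miRNAs.

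The members without G at position 12 were the 3 listed lowest, though the edge of that group is within the spread of a control. This was noticed after the values were seen, and it is a description of 9 spots. The 3 members without G at position 12, let-7f (G12A), let-7g (G12U) and let-7i (G12U), had the 3 lowest ratios, from 0.840 to 1.06, while the 6 members with G there ran from 1.13 to 1.35. The step between the groups, from let-7d to let-7i, was 1.068-fold, less than the 1.15-fold range of snoRNA202. Which members belong to the lower group is thus not settled by these ratios. Relative to the 4 controls of each member's own block, the groups were at 0.718 to 0.963 without G and 1.06 to 1.11 with it. These are the same 9 ratios on another scale, so they add no separate evidence. Of the 8 positions that vary within the family, 4 leave at least 2 members on each side, and position 12 was the only one of those 4 at which the ratios of the sides did not overlap. That comparison of positions used the same 9 ratios as well.

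Members 1 base apart were listed 1.04-fold to 1.40-fold from each other, distances that repeated spots of 1 control also reached. Of the 36 pairs of members, 4 differ by 1 base. The pair let-7b and let-7c (G17A) lay 1.04-fold apart, let-7a and let-7e (U9G) 1.11-fold, and let-7a and let-7c (A19G) 1.12-fold. The pair let-7a and let-7f (G12A) lay 1.40-fold apart, at 1.17 and 0.840 in the authors' deposited table, with 1 spot each. That distance exceeded the 1.32-fold range of the 8 U87 spots of the A set. It was less than the 1.48-fold range of Y1 and the 1.84-fold range of snoRNA135, so it may be spread between spots. The median distance was 1.12-fold over the 4 pairs 1 base apart, 1.11-fold over the 10 pairs 2 bases apart, 1.196-fold over the 11 pairs 3 bases apart and 1.24-fold over the 9 pairs 4 bases apart. The single pair 5 bases apart, let-7e and let-7i, lay 1.23-fold apart, and the most distant pair in sequence, let-7d and let-7i with 6 differences, only 1.07-fold. Pairs share members, so these medians are not independent.

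Members made from the same cluster were listed close together in some places and apart in others. On chromosome 15, let-7c and let-7b were at 1.32 and 1.26 in the authors' deposited table. On chromosome 13, let-7a and let-7d were at 1.17 and 1.13 in the authors' deposited table, with let-7f, whose gene lies between theirs, at 0.840. On chromosome X, miR-98 and let-7f, the highest and the lowest member, are neighbours, 1.60-fold apart. The gaps on chromosomes 13 and X both rest on the same single let-7f spot. The 1.60-fold gap is within the 1.84-fold range of the repeated snoRNA135 spots of the A set. Mature let-7f comes from both the chromosome 13 and the X cluster, and the share of each was not analysed here.

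In 3 clusters a let-7 gene is joined by a miR-99 or miR-100 gene and a miR-125 gene. The miR-99 and miR-100 miRNAs, which target Mtor in mammals, were listed on the same side as their let-7 neighbours, with ratios of 1.22 (miR-99a), 1.17 (miR-100) and 1.10 (miR-99b) in the authors' deposited table. The miR-125 miRNAs, mammalian relatives of the worm timer lin-4, were listed below 1, with ratios of 0.877 (miR-125a-5p) and 0.543 (miR-125b) in the authors' deposited table. Of these 5 neighbours 3 were above 1 and 2 below, and miR-125b was the only one at least 1.5-fold from 1. Among the A set spots, 47.7% were above 1 and 28.9% at least 1.5-fold from 1. With the mean of the 4 other controls as the reference, 2 neighbours were above 1, miR-99a at 1.07 and miR-100 at 1.02, against 29.6% of the A set spots. On chromosome 17, miR-99b, let-7e and miR-125a-5p, whose genes follow one another, were thus at 1.10, 1.30 and 0.877 in the authors' deposited table.

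**Figure D4:**
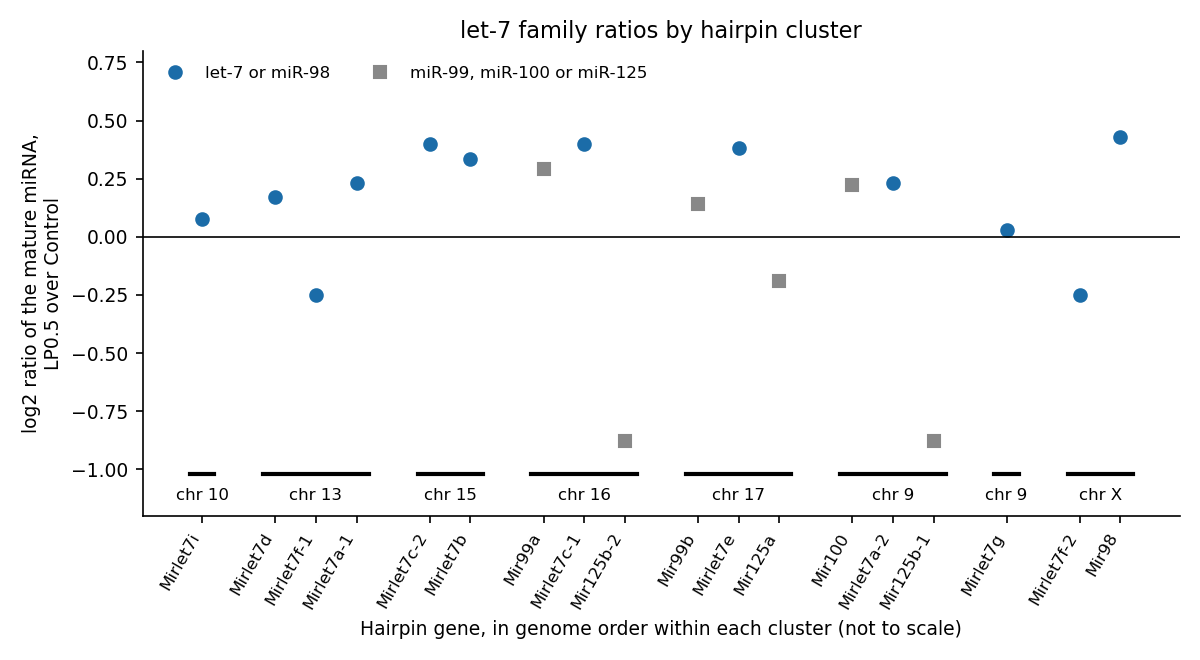
Log2 ratio of the mature miRNA, LP0.5 over Control, drawn at each hairpin gene of the 8 clusters or single genes that hold let-7 or miR-98 (blue circles) and their miR-99, miR-100 or miR-125 neighbours (grey squares); let-7a, let-7c, let-7f and miR-125b have more than 1 gene and are drawn once for each. Both miR-125 miRNAs lie below 0 beside let-7 genes above 0.

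The opposite strands of the hairpins, named with # on the panel, were spread far more widely than the main strands. All 8 let-7 opposite strands on the panel had a ratio, 4 above 1 and 4 below, with a median ratio of 1.05. Of the 88 # spots with a ratio in the B set, to which they all belong, 54.5% were above 1 and the median was 1.06. Listed at least 1.5-fold above 1 in the authors' deposited table were let-7i# at 2.84, let-7g# at 1.93 and let-7e# at 1.69, and let-7f-1# at 0.442 was as far below. That is 4 of 8, against 39.8% of the B set # spots. For the other opposite strands the authors' deposited table gave 1.26 (let-7c-1#), 0.872 (let-7d#), 0.821 (let-7a#) and 0.799 (let-7b#).

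Strand by strand, 5 of the 8 hairpins had both strands on the same side of 1 relative to U6, against 53.5% of the 86 # spots of the panel whose main strand was listed. With the mean of the 4 other controls as the reference it was 4 of 8, against 55.8%, since let-7i and let-7g then had strands on opposite sides and let-7d on the same side. For let-7f both were below 1, at 0.840 for the main strand and 0.442 for let-7f-1# in the authors' deposited table. For let-7c the strands were nearly equal, at 1.32 and 1.26 in the authors' deposited table. By contrast let-7a and let-7b had the main strand above 1 and the opposite strand below it under both references, and let-7d under U6. The main strands of let-7a, let-7c and let-7f each have more than 1 gene, while let-7c-1# and let-7f-1# name 1 hairpin each. For these members the compared strands need not come from the same hairpin. The highest over the lowest opposite strand was 6.41-fold, against 1.60-fold among the 9 members. Opposite strands were measured in another assay set than the members. There the plant miRNA ath-miR159a, which has no mouse target, was listed from 2.59 to 3.37 in the authors' deposited table, a range that holds let-7i#. In the A set, the set of the members, the plant assay was listed at 2 of 8 spots, at 0.139 and 1.96 in the authors' deposited table. The part of weak signal in the ratios of the opposite strands was not tested.

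**Figure D5:**
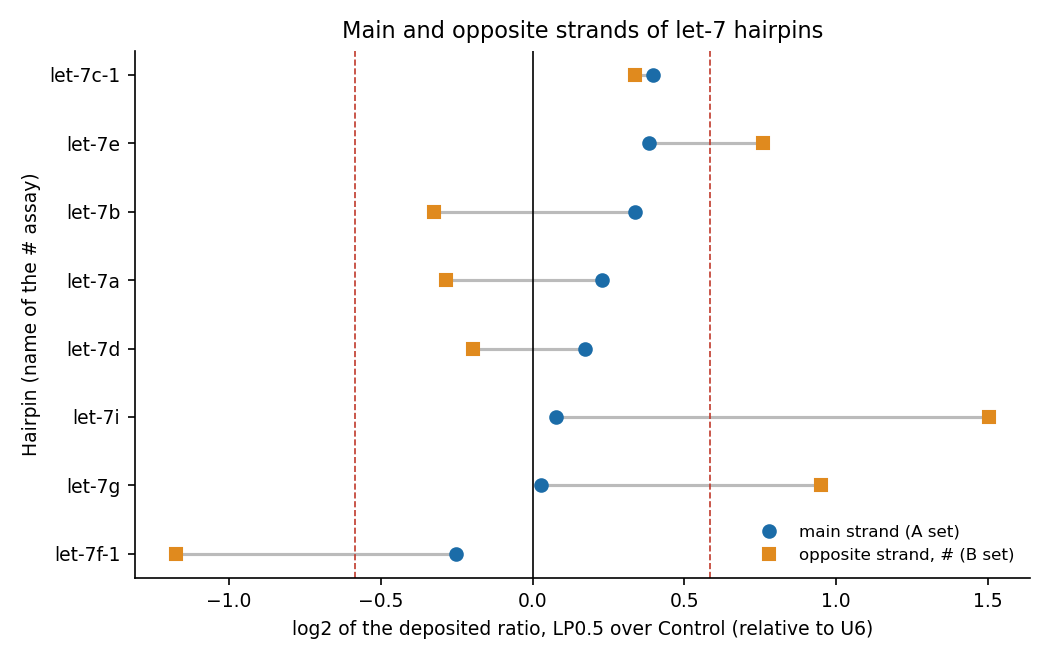
Log2 of the deposited ratio, LP0.5 over Control, for the main strand (circles, A set) and the opposite strand (squares, B set) of 8 let-7 hairpins, named by the # assay. Dashed lines mark 1.5-fold. No main strand reaches a dashed line, while 4 opposite strands pass one, let-7i# at 1.504 being the farthest.

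Few other miRNAs share the seed, and those on the panel gave little to set beside the family. Among 1679 RefSeq mature mouse miRNA names, 11 have the bases 2 to 8 of let-7a, the 9 members with let-7k and miR-1961, and a further 2, let-7j and miR-202-3p, share bases 2 to 7. In miR-196a-5p and miR-196b-5p, bases 2 to 8 equal bases 3 to 9 of let-7a, so the same letters sit 1 base nearer the 5′ end. Shown for comparison, with bases 2 to 8 in capitals, are relatives that have a name on the panel, where miR-196b-5p, not shown, has one too.
miR-1961: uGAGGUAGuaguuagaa
miR-202-3p: aGAGGUAUagcgcaugggaaga
miR-196a-5p: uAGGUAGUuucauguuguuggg
For miR-1961 no ratio was listed. An assay named miR-202, with no arm given, had a ratio of 0.440 in the authors' deposited table, while its companion miR-202-5p had no ratio. Assays of the miR-196 group, which lies in the Hox clusters, had ratios of 0.0620 (miR-196a) and 4.30 (the rat miR-196c) in the authors' deposited table, and miR-196b had none. These values lie outside the range of the 9 members, on both sides of 1.

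Levels of islet and other cell markers were not analysed here, so the labelled tissue was not checked by abundance. Their ratios, in the authors' deposited table, were 1.17 for miR-375 and 0.918 for miR-7, the islet markers. Of 4 acinar marker spots 1 was above 1 (range 0.726 to 1.83), of 6 blood cell spots 4 were (0.305 to 1.78), of 7 fibroblast and stellate cell spots 4 were (0.190 to 2.66), and the endothelial miR-126 was at 0.975, all in the authors' deposited table. Their part in the family's ratios was not tested.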

How the data were processed

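TaqMan RT-PCR with a FAM probe was used on total RNA, per the labels' protocols, and limma is named in the submitters' processing notes, without role or version. What the authors deposited is 1 linear ratio (fold) per spot, set as L.05 against Control per the file headers. Its normalization, detection limit, averaging over samples and amplification depth were not given in the sources used here. Another deposited table supplied spot and miRNA names. Its 12 per-sample columns have names that match no sample label, so they were used in no step. The planned limma test of 6 LP0.5 against 6 Control samples was therefore not run.

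Tables were joined by spot code, ratios converted to log2, and re-referenced by subtracting the mean or median log2 ratio of control or miRNA spots. Hairpin genes within 50000 bases were taken as 1 cluster. Sequences came from RefSeq tables of GRCm38.p6, by name. The text names all members, their cluster neighbours, opposite strands, seed relatives, controls and cell markers. Members and lists were chosen with earlier results of these data known. Name matching and re-referencing were tested on simulated data. Tools were matplotlib 3.10.9, scipy 1.17.1, pandas 2.3.3 and numpy 2.4.6 under Python 3.11.15.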

Additional observations from a re-analysis of the deposited data

How the results depend on the processing

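The cause of the differences between settings was not tested. References made of 1 control or of a block, the family without block A1, and the strand comparison under other controls were chosen after seeing the data. The family's median log2 ratio, 0.23 with U6, was 0.034 with the mean of the 4 other controls, 0.067 with their median, -0.030 with snoRNA135, 0.079 with snoRNA202, 0.098 with U87, -0.013 with Y1 and 0.088 with the 4 controls of the own block. It was 0.27 with the median miRNA spot of the set, 0.26 with that of the block, 0.20 as a mean, 0.13 without the members of block A1, and 0.20 to 0.28 with 1 member left out in turn. The number of members above 1, 8 with U6, was 5 with the mean of the other controls and 4 with snoRNA135 or Y1, and 6 to 8 with the 6 other references. Of the A set spots, 47.7% were above 1 with U6, 29.6% with the mean of the other controls, 24.7% with snoRNA135 and 25.7% with Y1. With the 6 other references that share was 30.6% to 50%. At least 1.2-fold from 1 were 4 members (54.6% of A set spots) and at least 1.5-fold 0 (28.9% of A set spots). With none at 1.5-fold, the count at 2-fold was also 0, and the share of spots at that limit was not computed. The share of panel spots at least 1.5-fold from 1 was 28.9% in the A set alone, against 35.3% in all and 36.4% with 1 mean per name. The median log2 ratio of the 5 cluster neighbours, 0.14 with U6, was -0.057 and -0.024 with the mean and the median of the other controls, and 0.17 with the median miRNA spot. Of 81 member ratios under other references, 60 shifted by more than 0.13, the mean SD of repeated control spots, and 21 by less. A reference for the set shifts all members by the same amount, so these are not 81 separate shifts. The SD is that of single spots, while a reference is a mean or median over several. No paired analysis was possible because the per-sample columns carry no sample or replicate name; the replicate block and the per-sample change of reference were not run.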
